A study of Mus musculus with 6 samples.

Results

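The genes described are 10 of the 33696 genes counted in single CD45-positive cells of mouse liver: the immunoglobulin constant genes Ighm, Ighd, Igha, Ighg1, Ighg2b, Ighg2c, Ighg3, Igkc and Iglc2, and Jchain. They were chosen by name as a gene family. All 10 were present in the files. There were 3 groups with 1 RNA library each. The iNKT KO HFD+HDCA mice were Jα18-/-, without a segment needed for the T cell receptor of invariant natural killer T (iNKT) lymphocytes, and ate a 60% high-fat diet (HFD) with 0.25% hyodeoxycholic acid (HDCA), a bile acid. The WT HFD+HDCA mice were wild type on the same diet with the same addition, and the WT HFD mice were wild type on the 60% HFD alone. All mice were fed for 12 weeks, and 10000 sorted liver mononuclear cells are stated per sample. The labels give neither the age of the mice nor the number of mice behind a library. One text field names a sort for CD4, but cells with B cell markers made up 38.2%, 33.9% and 32.9% of the kept cells in iNKT KO HFD+HDCA, WT HFD+HDCA and WT HFD. With 1 library per group no test of a difference was possible. The 95% intervals given in brackets cover counting error only.

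An antibody is built of heavy and light chains, and each chain joins a variable (V) segment to a constant region. Naive B cells make IgM and IgD from Ighm and Ighd by splicing of a shared transcript. After class switching, a B cell uses a constant gene further along the locus instead, which gives IgG3 (Ighg3), IgG1 (Ighg1), IgG2b (Ighg2b), IgG2c (Ighg2c) or IgA (Igha). The light chain is kappa (Igkc) or lambda (Iglc2 and its relatives Iglc1 and Iglc3). Jchain encodes the joining chain that links IgM and IgA into polymers, and it is high in plasma cells, the antibody-secreting form of the B lineage. Constant genes can also be transcribed from promoters of their own without a joined V segment, as germline transcripts. The liver drains blood from the gut, where IgA plasma cells are abundant. The gamma genes are close copies of each other, as are Iglc1, Iglc2 and Iglc3. The sources do not state how reads that match several copies were counted, so levels within each of these sets are uncertain.

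The libraries held 46600746 UMIs (unique molecular identifiers, 1 per captured RNA molecule) for iNKT KO HFD+HDCA, 70776925 for WT HFD+HDCA and 44332213 for WT HFD. Between 6183 and 9680 cells per library were kept, at medians of 5120.5 to 5617 UMIs per cell. Cells were put into classes by marker UMIs that include no constant gene. The plasma-rule barcodes are the exception, since they needed at least 10 UMIs of Jchain with Mzb1 or Sdc1. Their high Jchain level is therefore no finding. Cell barcodes shared between libraries numbered 93 for the knockout and WT HFD+HDCA, 67 for the knockout and WT HFD, and 73 for the WT pair. Levels are CPM, the UMIs of a gene scaled to the summed UMIs of the class in that library. The B class held 2613, 3284 and 2037 cells in iNKT KO HFD+HDCA, WT HFD+HDCA and WT HFD, with Ms4a1 (CD20) in 92.5% to 93.6% of them.

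IgM and IgD constant genes were carried by most liver B cells at nearly the same level in the 3 libraries. Ighm, the IgM heavy chain, had 1118 CPM (1099 to 1138) in B cells of iNKT KO HFD+HDCA, 1148 (1131 to 1165) in WT HFD+HDCA and 1156 (1134 to 1177) in WT HFD. It was seen in 95.8%, 96.6% and 97.1% of these cells. Ighd, the IgD heavy chain, had 396 CPM (384 to 407) in iNKT KO HFD+HDCA, 359 (350 to 369) in WT HFD+HDCA and 367 (355 to 380) in WT HFD. The WT HFD+HDCA over WT HFD ratio was 0.993 (0.970 to 1.02) for Ighm and 0.978 (0.937 to 1.02) for Ighd. The iNKT KO HFD+HDCA over WT HFD+HDCA ratio was 0.974 (0.952 to 0.997) for Ighm and 1.10 (1.06 to 1.15) for Ighd. Both genes together were seen in 70.7% of B cells of the knockout, against 70.9% (WT HFD+HDCA) and 73.0% (WT HFD). Ighm without Ighd was seen in 25.1%, 25.7% and 24.0%. A median B cell held 4 Ighm UMIs and 1 Ighd UMI in each library, so cells without an Ighd UMI cannot be read as cells without IgD at this depth.

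**Figure D1:**
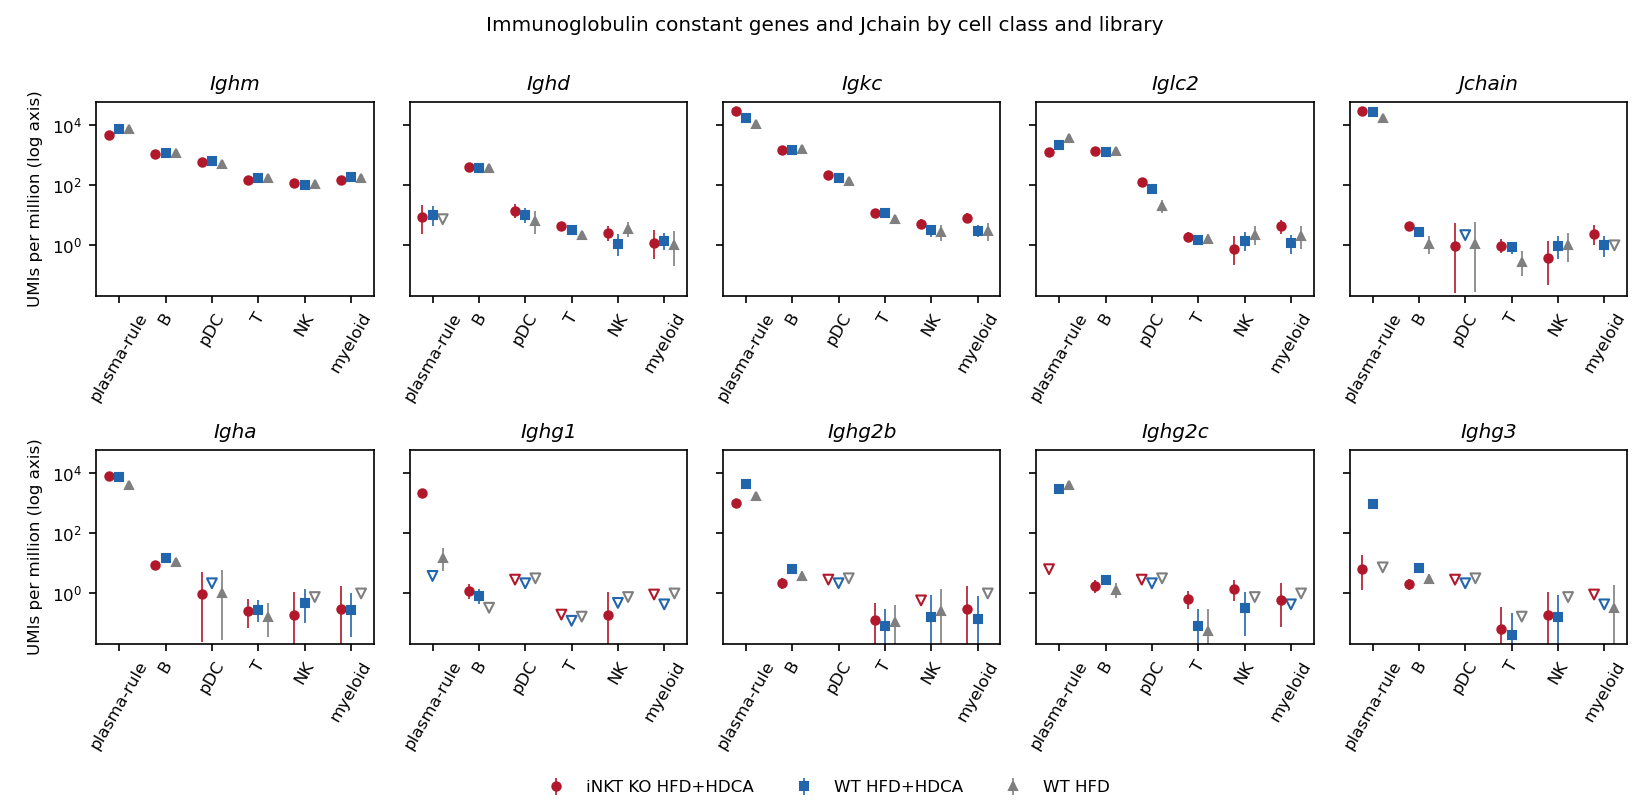
CPM on a log axis of each of the 10 genes (1 panel each) in plasma-rule, B, plasmacytoid dendritic (pDC), T, NK and myeloid cells of the 3 libraries, with exact Poisson 95% intervals; open triangles mark the limit that a count of 0 allows. Ighm has signal in every class, at 98.8 to 181 CPM in T, NK and myeloid cells, while Igha and the gamma genes rest on at most 10 UMIs in each of these 3 classes.

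The switched constant genes were rare in the B class, and 4 of the 5 had their highest level there in WT HFD+HDCA, Ighg1 being the exception. Igha, the IgA heavy chain, had 8.57 CPM (6.97 to 10.4) in iNKT KO HFD+HDCA, 14.5 (12.7 to 16.6) in WT HFD+HDCA and 10.4 (8.43 to 12.6) in WT HFD. Ighg3, used by B cells that answer polysaccharides, had 1.99 CPM (1.26 to 2.99) in the knockout, 6.90 (5.65 to 8.36) in WT HFD+HDCA and 2.93 (1.95 to 4.24) in WT HFD. Those levels rest on 23, 105 and 28 UMIs. Ighg2b had 24, 95 and 36 UMIs in iNKT KO HFD+HDCA, WT HFD+HDCA and WT HFD, or 2.08, 6.25 and 3.77 CPM. Ighg2c, the IgG2c gene of C57BL/6-type mice, had 19, 40 and 12 UMIs, or 1.65, 2.63 and 1.26 CPM. Ighg1 had 13 UMIs in the knockout (1.13 CPM), 12 in WT HFD+HDCA (0.789 CPM) and 0 in WT HFD, which allows up to 0.314 CPM.

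Against WT HFD, WT HFD+HDCA had 1.66 times the Ighg2b level (1.12 to 2.50), 2.09 times the Ighg2c level (1.08 to 4.38) and 2.35 times the Ighg3 level (1.54 to 3.71). Igha was at 1.40 (1.10 to 1.79). Of the 8 genes with at least 50 UMIs over both libraries, these 3 gamma genes were at least 1.5-fold higher and none was as much lower. Among all 10817 genes measured in B cells, 3.24% passed that fold, 1.97% on the higher and 1.27% on the lower side. For the knockout over WT HFD+HDCA, the ratios were 0.590 for Igha (0.461 to 0.751), 0.333 for Ighg2b (0.203 to 0.525), 0.626 for Ighg2c (0.342 to 1.11) and 0.289 for Ighg3 (0.175 to 0.456). These 4 were at least 1.5-fold lower and Jchain was higher, among 9 genes measured. Of all 10978 genes, 4.14% passed, 2.19% on the higher and 1.95% on the lower side. Both comparisons share the WT HFD+HDCA library, so they are not separate evidence. A low gene could reach 50 UMIs through 1 library alone, so these counts describe the libraries and carry no test. No gamma gene and not Jchain reached 200 UMIs over both libraries in either comparison. Under a stricter B gate, or with each cell thinned to 2000 UMIs, no gamma gene reached 50 UMIs, and for the knockout over WT HFD+HDCA Igha alone passed.

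Single cells carried part of the gamma signal. The B cell with most Ighg3 held 5 UMIs in the knockout, 39 in WT HFD+HDCA and 10 in WT HFD. In WT HFD+HDCA, 2 further B cells held 28 and 10 of the 105 Ighg3 UMIs, and leaving out the top cell keeps both in. The intervals count UMIs as independent, so they do not cover UMIs that lie together in a few cells. Without the top cell of each gene in each library, the WT HFD+HDCA over WT HFD ratio was 1.73 (1.12 to 2.75) for Ighg2b, 2.30 (1.35 to 4.12) for Ighg3 and 1.499 (1.17 to 1.94) for Igha. Ighg2c then had 34 UMIs in WT HFD+HDCA and 6 in WT HFD, under the 50 needed, at 3.56 (1.48 to 10.4), so 2 genes in place of 3 passed the fold. The knockout over WT HFD+HDCA ratio was then 0.296 for Ighg2b, 0.359 for Ighg3 and 0.582 for Igha. Ighg2c was under 50 UMIs there too, at 0.504 (0.244 to 0.979), so 4 genes in place of 5 passed. In T cells of the same libraries Igha was at 0.247, 0.268 and 0.159 CPM and Ighg3 had at most 1 UMI, far under the B class. The 7 hepatocyte markers summed to 4.24 CPM in B cells of iNKT KO HFD+HDCA, 10.6 in WT HFD+HDCA and 2.51 in WT HFD, with 6 of 7 detected in each library, Fabp1 at 0 in the knockout and Serpina1a at 0 in both WT libraries. That order has WT HFD+HDCA highest, as for Ighg2b, Ighg2c and Ighg3 but not Ighg1. The hepatocyte sum was higher in the knockout than in WT HFD, as was Ighg2c, while Ighg2b and Ighg3 were lower there. The part of hepatocyte RNA in the gamma levels was not tested.

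**Figure D2:**
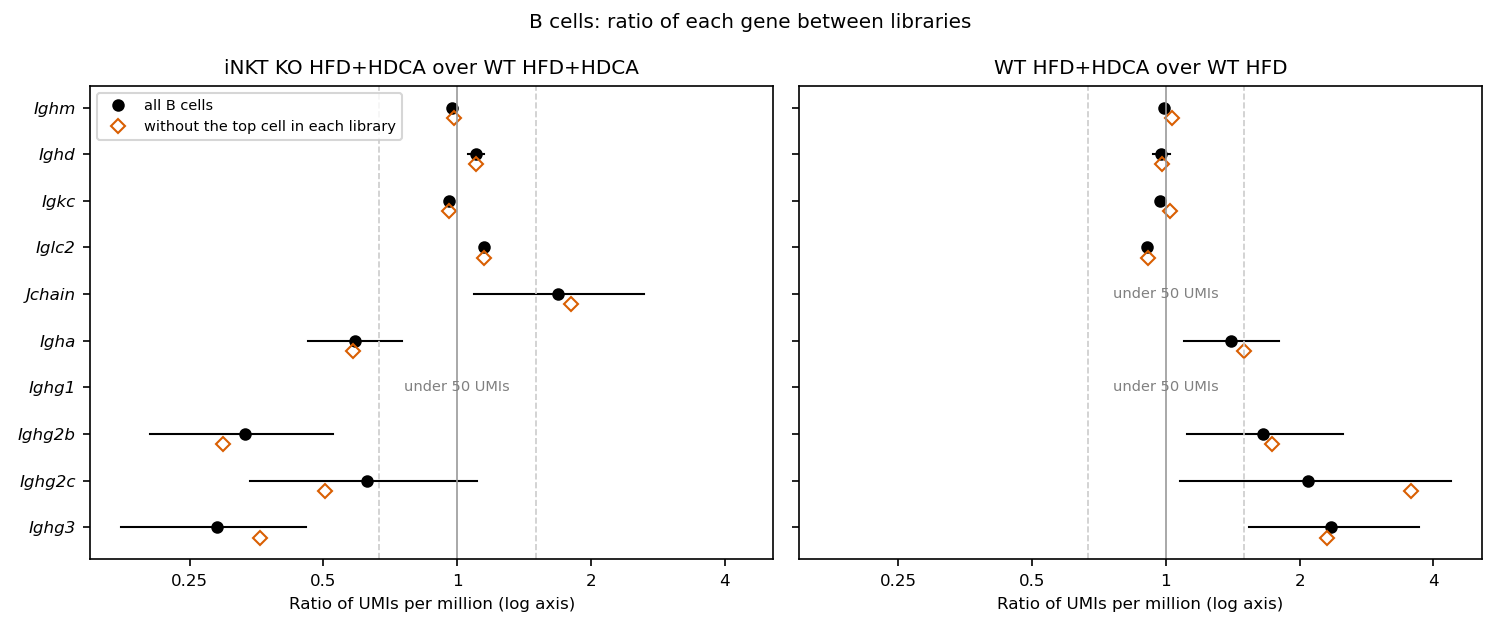
Ratio of CPM in B cells with its 95% interval for each gene, iNKT KO HFD+HDCA over WT HFD+HDCA on the left and WT HFD+HDCA over WT HFD on the right; diamonds leave out the cell with most UMIs of that gene in each library and dashed lines mark 1.5-fold. Ighm, Ighd, Igkc and Iglc2 lie near 1 in both panels, while Ighg2b and Ighg3 lie at 0.333 and 0.289 on the left and at 1.66 and 2.35 on the right.

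Few B cells had switched constant genes as their main heavy chain. With at least 3 UMIs of these genes and more than of Ighm and Ighd together, 9 of 2613 B cells were called switched in iNKT KO HFD+HDCA (0.344%), 13 of 3284 in WT HFD+HDCA (0.396%) and 3 of 2037 in WT HFD (0.147%). The ratio was 2.69 (0.739 to 14.7) for WT HFD+HDCA over WT HFD and 0.870 (0.328 to 2.20) for the knockout over WT HFD+HDCA. Both intervals include 1, so neither difference was detectable at this depth. The strongest switched B cell of WT HFD+HDCA held 39 Ighg3, 15 Ighg2b and 6 Ighg2c UMIs beside 67 Igkc and 74 Iglc2, with no Ighm or Ighd UMI, in a barcode of 18467 UMIs. The next held 28 Ighg3 and 5 Ighg2c UMIs in 5897. The strongest in WT HFD held 10 Ighg3 and 3 Ighg2b UMIs, and no switched B cell of the knockout held more than 6 UMIs of any 1 switched gene. Of these 25 cells, 1 held a Jchain UMI.

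The kappa and lambda constant genes had similar levels in all 3 libraries. Igkc had 1423 CPM (1401 to 1445) in B cells of iNKT KO HFD+HDCA, 1488 (1469 to 1508) in WT HFD+HDCA and 1535 (1510 to 1560) in WT HFD. Iglc2 had 1398 CPM (1377 to 1420), 1220 (1203 to 1238) and 1342 (1319 to 1365). The Iglc2 ratio was 0.909 (0.889 to 0.930) for WT HFD+HDCA over WT HFD and 1.15 (1.12 to 1.17) for the knockout over WT HFD+HDCA. The cell share with Iglc2 above Igkc was 44.4% in iNKT KO HFD+HDCA, 38.4% in WT HFD+HDCA and 44.6% in WT HFD.

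Of the constant light chain genes, Igkc and Iglc1 followed the V segments, but Iglc2 and Iglc3 did not. B cells with more lambda V (Iglv) than kappa V (Igkv) UMIs were 5.60% in the knockout, 6.79% in WT HFD+HDCA and 7.19% in WT HFD. Igkc was seen in 42.1%, 43.4% and 44.8% of the lambda-V cells of iNKT KO HFD+HDCA, WT HFD+HDCA and WT HFD, against 95.6%, 97.5% and 97.1% of their kappa-V cells. In the knockout it had 721 CPM in lambda-V cells and 1466 in kappa-V cells, and in WT HFD+HDCA 530 and 1558. In WT HFD it had 1275 and 1555 CPM, with 579 of the 851 UMIs of the lambda-V cells in 1 cell. Iglc2 did not separate them. It had 1394 CPM in lambda-V cells and 1403 in kappa-V cells of iNKT KO HFD+HDCA, 1247 and 1221 in WT HFD+HDCA, and 1470 and 1333 in WT HFD. Iglc1 was higher in lambda-V cells, at 517 CPM against 283 in kappa-V cells of the knockout, 515 against 264 in WT HFD+HDCA and 592 against 261 in WT HFD. Iglc3 was lower in lambda-V cells, at 514 against 1067, 587 against 1118 and 746 against 1207 CPM in the same order of libraries. So neither the Iglc2 level nor the share of cells with Iglc2 above Igkc gives the share of lambda cells in these files.

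**Figure D3:**
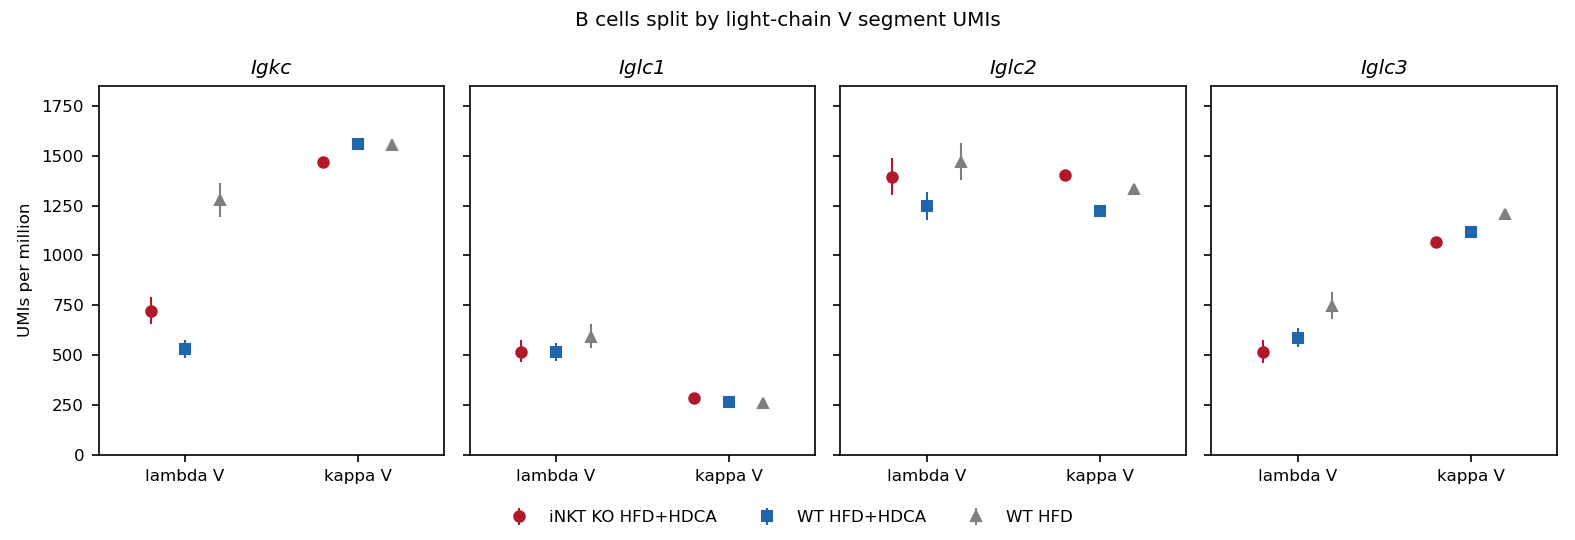
CPM of Igkc, Iglc1, Iglc2 and Iglc3 in B cells whose light chain V segments were mostly lambda or mostly kappa, by library, with 95% intervals. Iglc2 stands at about the same height in both kinds of cell (1394 and 1403 CPM in iNKT KO HFD+HDCA), while Iglc1 is higher and Iglc3 lower in lambda-V cells of each library.

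A few cells of the B class held many antibody UMIs without meeting the Jchain rule. The WT HFD cell with most Ighm held 575 Ighm and 873 Igkc UMIs among 7437, with 2 Sdc1, 0 Ms4a1 and 0 Jchain UMIs. It alone carried 5.21% of the Ighm UMIs of its class. The WT HFD+HDCA cell with most Ighm held 209 Ighm, 209 Igkc and 9 Jchain UMIs. The highest in iNKT KO HFD+HDCA held 34 Ighm and 0 Jchain UMIs. Without the top cells the Ighm ratio was 1.04 for WT HFD+HDCA over WT HFD and 0.984 for the knockout over WT HFD+HDCA, still near 1.

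Jchain in the B class was low, and its levels rest on few UMIs in few cells. It had 50 UMIs in 28 B cells of iNKT KO HFD+HDCA (4.33 CPM, 3.21 to 5.71), 39 UMIs in 23 cells of WT HFD+HDCA (2.56 CPM, 1.82 to 3.51) and 10 UMIs in 10 cells of WT HFD (1.05 CPM, 0.502 to 1.93). The knockout over WT HFD+HDCA ratio was 1.69 (1.09 to 2.64), above 1, where those of Igha, Ighg2b, Ighg2c and Ighg3 were below 1. For the share of B cells with a Jchain UMI, the ratio was 1.53 (0.850 to 2.78) for the knockout over WT HFD+HDCA. It was 1.43 (0.653 to 3.36) for WT HFD+HDCA over WT HFD. Both of these intervals include 1, so no difference in that share was detectable. The rule for plasma cells sets a ceiling of 9 Jchain UMIs on these cells where Mzb1 or Sdc1 was seen. Of the 14 plasma cell genes outside the antibody genes, 12 were measured in B cells, and 0 passed 1.5-fold in either comparison. Mzb1, a chaperone of antibody folding, had 324 CPM in the knockout, 344 in WT HFD+HDCA and 321 in WT HFD.

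Lists of other B cell genes are given for comparison. Of 7 genes of B1 and memory cells, all were measured, and 3 were at least 1.5-fold higher in WT HFD+HDCA than in WT HFD, where 1.97% of all genes were (median log2 ratio 0.52, against 0.01 over all genes measured). Zbtb32, a transcription factor of B1 and memory B cells, had 7.36 CPM in the knockout, 13.5 in WT HFD+HDCA and 7.33 in WT HFD. Its ratio was 1.85 (1.40 to 2.46) for WT HFD+HDCA over WT HFD and 0.544 (0.417 to 0.703) for the knockout over WT HFD+HDCA. It was the 1 gene of that list past the fold in the second comparison, where 4.14% of all genes passed. The same shares stand behind the list counts that follow. Of 7 germinal centre and class switching genes, 3 were measured in the first comparison, and Fas alone passed the fold, higher at 1.59 (1.07 to 2.40). Bcl6 was lower there at 0.855 (0.777 to 0.940), and Mef2b was at 0.958 (0.678 to 1.36). Of the 4 measured in the second, Rgs13 alone passed, higher at 1.81 (1.04 to 3.20). Bcl6 was again lower at 0.865 (0.784 to 0.954). Fas was at 0.767 (0.536 to 1.09) and Mef2b at 1.24 (0.907 to 1.70). Of 5 B maturation genes, 1 was past the fold on the higher side in each comparison. Fcer2a (CD23) had 561, 597 and 626 CPM in iNKT KO HFD+HDCA, WT HFD+HDCA and WT HFD.

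Plasma-rule barcodes were few, and they held nearly all Jchain and most of the Igha and Ighg2b RNA of the liver samples. They numbered 22 of 6838 kept cells in iNKT KO HFD+HDCA (0.322%), 29 of 9680 in WT HFD+HDCA (0.300%) and 13 of 6183 in WT HFD (0.210%). The ratio of shares was 1.42 (0.718 to 2.99) for WT HFD+HDCA over WT HFD and 1.07 (0.588 to 1.94) for the knockout over WT HFD+HDCA, so no difference was detectable. They carried 99.3%, 99.6% and 99.7% of the Jchain UMIs of their libraries, which the rule brings about. They also carried 95.3%, 94.9% and 93.0% of the Igha UMIs. The threshold of 10 Jchain UMIs cut through few cells. Inside it, 1, 3 and 1 barcodes had 10 to 19 UMIs in iNKT KO HFD+HDCA, WT HFD+HDCA and WT HFD. Outside it, 3, 2 and 0 had 5 to 9.

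Their other genes were those of plasma cells. Tnfrsf17 (BCMA), a survival receptor of plasma cells, had 168, 198 and 210 CPM in plasma-rule barcodes of the knockout, WT HFD+HDCA and WT HFD, against 0, 0.329 and 0.105 in B cells. Derl3, a factor of protein disposal in the endoplasmic reticulum, was 186, 189 and 233 times the B cell level. Xbp1, a transcription factor of secretory cells, was 14.4, 26.6 and 18.1 times it. Pax5, which keeps the B cell state, was at 0.0823, 0.0224 and 0.00765 times the B cell level. Tnfrsf13b (TACI) was near it, at 0.943, 0.943 and 1.24. Siglech, the marker of plasmacytoid dendritic cells, was at 0 in all 64 barcodes. Some barcodes kept B cell RNA, since Ms4a1 had at least 5 UMIs in 6, 4 and 1 of them. Those 11 had a median of 43 Jchain UMIs, against 640 in the other 53.

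Each plasma-rule barcode was led by 1 heavy chain gene. In 60 of 64 a single heavy chain constant gene held over 90% of the heavy chain UMIs. Ighm led 27, Igha 23, Ighg2b 8, Ighg2c 3, Ighg1 2 and Ighg3 1, and Ighd led none. In iNKT KO HFD+HDCA, 11 were led by Igha, 8 by Ighm, 2 by Ighg1 and 1 by Ighg2b. In WT HFD+HDCA, 14 were led by Ighm, 7 by Igha, 5 by Ighg2b, 2 by Ighg2c and 1 by Ighg3. In WT HFD, 5 each were led by Ighm and Igha, 2 by Ighg2b and 1 by Ighg2c. Immunoglobulin genes made up a median of 28.5%, 48.6% and 30.8% of all UMIs in such a barcode. Barcodes led by Igha had a median of 504 Jchain UMIs and those led by Ighm 441.

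Igha led 11 of 22 barcodes in iNKT KO HFD+HDCA (28.2% to 71.8%), 7 of 29 in WT HFD+HDCA (24.1%, 10.3% to 43.5%) and 5 of 13 in WT HFD (38.5%, 13.9% to 68.4%). The ratio was 2.07 (0.733 to 6.30) for the knockout over WT HFD+HDCA and 0.628 (0.171 to 2.51) for WT HFD+HDCA over WT HFD. Both intervals include 1. The share led by any switched gene was 63.6%, 51.7% and 61.5%. With so few barcodes, the summed levels follow single cells. Igkc in plasma-rule barcodes was 29188 CPM in the knockout, 17829 in WT HFD+HDCA and 10998 in WT HFD, and cell 1 of the knockout alone gave 8395 of its 14268 Igkc UMIs. That cell also held 1866 Igha and 3522 Jchain UMIs. The Ighg1 level of 2234 CPM in the knockout came from 2 barcodes with 850 and 242 UMIs, and the other libraries had 0 and 6 UMIs. Ighg3 in WT HFD+HDCA, at 941 CPM, came mostly from 1 barcode with 739 of 773 UMIs.

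**Figure D4:**
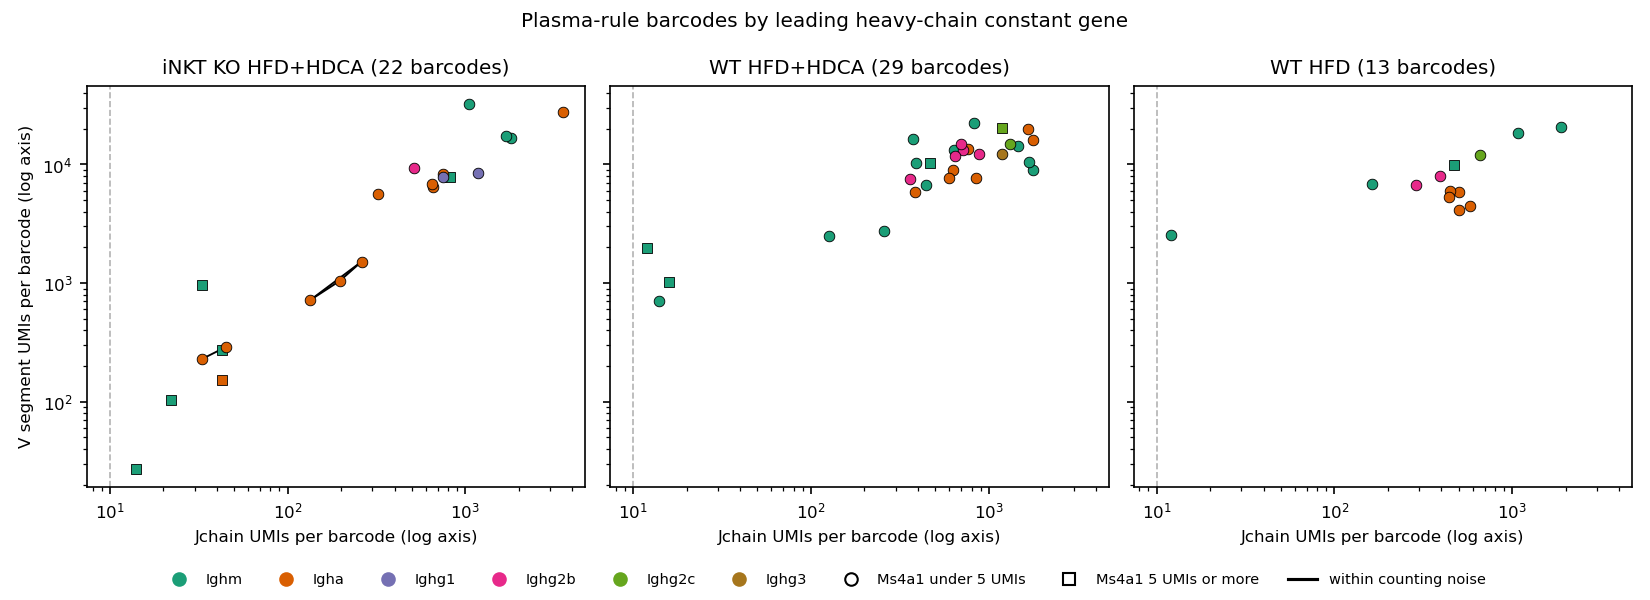
Jchain UMIs against V segment UMIs in each plasma-rule barcode, 1 panel per library, coloured by the heavy chain constant gene with most UMIs; squares have at least 5 Ms4a1 UMIs, lines join barcodes that differ by no more than counting noise, and the dashed line is the rule's 10 Jchain UMIs. Barcodes led by Ighm and by Igha overlap on both axes, and most of the 11 squares lie at the low end of both axes.

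Several plasma-rule barcodes of the same library were alike beyond their constant genes. The leading heavy and light V segments were the same in 17 pairs of barcodes, all within a library. For each pair, a chi-square over all genes other than immunoglobulin genes was set against its degrees of freedom, where 1 is pure counting noise. In 7 pairs it was at most 1.5. Pairs with other V segments had a lowest value of 1.89 in iNKT KO HFD+HDCA, 2.67 in WT HFD+HDCA and 2.51 in WT HFD, and medians of 5.24, 5.55 and 4.73. These 7 pairs form 5 sets with 11 barcodes, and 3 of the sets were Igha-led barcodes of the knockout. Its cells 9 and 10 (Ighv1-18 with Igkv6-15) held 519 and 497 Igha, 327 and 348 Igkc, and 655 and 653 Jchain UMIs, at 1.10 over 217 genes. Its cells 13, 14 and 15 (Ighv1-69 with Igkv5-43) held 87, 65 and 40 Igha UMIs and 261, 197 and 134 Jchain UMIs, at 0.979 to 1.12. Its cells 16 and 19 were shallow, with 1779 and 1351 UMIs, and rest on 29 genes at 1.21. They used the same V segments as cells 9 and 10 and were led by Igha too. Against cells 9 and 10 they stood at 2.68 to 3.56, so they were kept as a separate set. One further set was led by Ighg2b in WT HFD+HDCA (0.886 over 288 genes) and another by Igha in WT HFD (1.08 over 448 genes).

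Counted as 1 cell per set, the 64 barcodes become 58. The shares of kept cells are then 0.263% in iNKT KO HFD+HDCA, 0.289% in WT HFD+HDCA and 0.194% in WT HFD, and the knockout over WT HFD+HDCA ratio turns to 0.910 (0.474 to 1.70). The Igha-led share is then 7 of 18, 7 of 28 and 4 of 12, with a knockout over WT HFD+HDCA ratio of 1.56 (0.466 to 5.20). Other pairs shared V segments but differed by more than noise. In WT HFD+HDCA, cells 5 and 8 both used Ighv6-6 with Igkv4-57. Cell 5 held 530 Ighm and 0 Ighg3 UMIs, and cell 8 held 739 Ighg3 and 8 Ighm UMIs, at 3.28. Also in WT HFD+HDCA, 5 of 29 barcodes used the kappa segment Igkv5-39, all led by Ighm, with 4 different heavy V segments, against 0 of 22 in the knockout and 0 of 13 in WT HFD. Joining sequences are not in gene counts, so shared V segments do not show a shared clone.

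Markers of T or NK cells were present in some plasma-rule barcodes. With more than 1 Cd3 UMI, an Ncr1 UMI or a TCR contig, these were 2 of 22 in iNKT KO HFD+HDCA, 4 of 29 in WT HFD+HDCA and 4 of 13 in WT HFD. Without them Igha led 11 of 20, 5 of 25 and 4 of 9 barcodes. One of them bears on Ighg2c. Cell 7 of WT HFD+HDCA held 1655 Ighg2c UMIs, 65.4% of the Ighg2c UMIs of its library, with 16 Ncr1, 14 Cd3 and 114 Gzma UMIs among 53712. Scrublet did not call it a doublet. A second WT HFD+HDCA barcode held 736 Ighg2c UMIs and no Ncr1. In WT HFD, 1668 of 1686 Ighg2c UMIs (98.9%) lay in 1 plasma-rule barcode.

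Ighg2c in Ncr1-positive cells of the knockout rested on 7 UMIs. Ncr1 encodes NKp46, the receptor that marks NK cells. In the NK class, Ighg2c had 7 UMIs in 6 of 855 cells of iNKT KO HFD+HDCA (1.29 CPM, 0.520 to 2.66), 2 UMIs in 2 of 1082 cells of WT HFD+HDCA (0.304 CPM, 0.0368 to 1.10) and 0 in 667 cells of WT HFD, which allows up to 0.717 CPM. No cell held more than 2 UMIs. The knockout share was 0.702% of NK cells (0.258 to 1.52) at a median depth of 5624 UMIs, against 0.446% of T cells (0.214 to 0.819) at 6665 and 0.541% of myeloid cells (0.0655 to 1.94) at 8677. The 3 intervals overlap, but they are wide and rest on few cells. With each cell thinned to 2000 UMIs, a UMI was left in 3 of 818 NK cells (0.367%), 2 of 2192 T cells (0.0912%) and 0 of 348 myeloid cells, or 1.83 CPM in NK cells and 0.456 in T cells. Whether these UMIs came from the cells themselves was not tested. The knockout over WT HFD+HDCA ratio was 4.26 (0.810 to 42.0) in NK cells and 8.05 (1.72 to 75.6) in T cells. Ighg2c in T cells was at 0.617 CPM in the knockout, 0.0766 in WT HFD+HDCA and 0.0528 in WT HFD, on 10, 2 and 1 UMIs.

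Plasma-rule barcodes of the knockout had no Ighg2c UMI at all, a limit of 6.14 CPM. In all, the knockout held 48 Ighg2c UMIs in 39 of 6838 cells, of which 19 UMIs were in B cells and at most 6 in 1 cell. Within NK cells of the knockout, those with a UMI of Klrg1, a receptor of mature NK cells, had 5 Ighg2c UMIs in 388 cells and those without had 2 in 467. Taking every kept cell with Ncr1 gave 1.10 CPM in the knockout, 181 in WT HFD+HDCA and 0 in WT HFD. All but 2 of the 1657 UMIs behind the WT HFD+HDCA value lay in cell 7 above. Leaving out plasma-rule barcodes, the values were 1.10, 0.221 and 0 CPM.

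In T, NK and myeloid cells, Ighm was the constant gene with a clear signal. T cells had 148 CPM (143 to 155) of Ighm in iNKT KO HFD+HDCA, 173 (168 to 178) in WT HFD+HDCA and 172 (166 to 178) in WT HFD, with a UMI in 49.96%, 56.1% and 58.2% of cells. NK cells had 113, 98.8 and 108 CPM, and myeloid cells 147, 181 and 164. These are 8.61% to 15.8% of the B cell level. Igkc in the same 3 classes was at 0.171% to 0.815% of its B cell level, Ighd at 0.257% to 1.06% and Iglc2 at 0.0528% to 0.291%. The ratio of Ighm to Igkc differed between classes. In the knockout, WT HFD+HDCA and WT HFD there were 12.8, 15.7 and 23.6 Ighm UMIs per Igkc UMI in T cells, 22.7, 32.6 and 41.0 in NK cells and 18.7, 63.2 and 57.7 in myeloid cells, against 0.786, 0.771 and 0.753 in B cells. The source of the Ighm UMIs in these classes was not tested.

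Ighm in those classes also came with few heavy chain V segments. T cells had 0.0499, 0.0370 and 0.0262 Ighv UMIs per Ighm UMI in iNKT KO HFD+HDCA, WT HFD+HDCA and WT HFD, against 3.11, 2.97 and 2.77 in B cells. T cells with 0 UMIs of the B markers still had 142 CPM of Ighm in the knockout and 171 in each WT library. At least 3 Ighm UMIs were seen in 14.7%, 17.5% and 18.2% of T cells. After each cell was thinned to 2000 UMIs, Ighm was seen in 24.4%, 26.9% and 28.2% of T cells, 17.2%, 15.6% and 17.5% of NK cells and 84.3%, 84.9% and 85.2% of B cells.

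**Figure D5:**
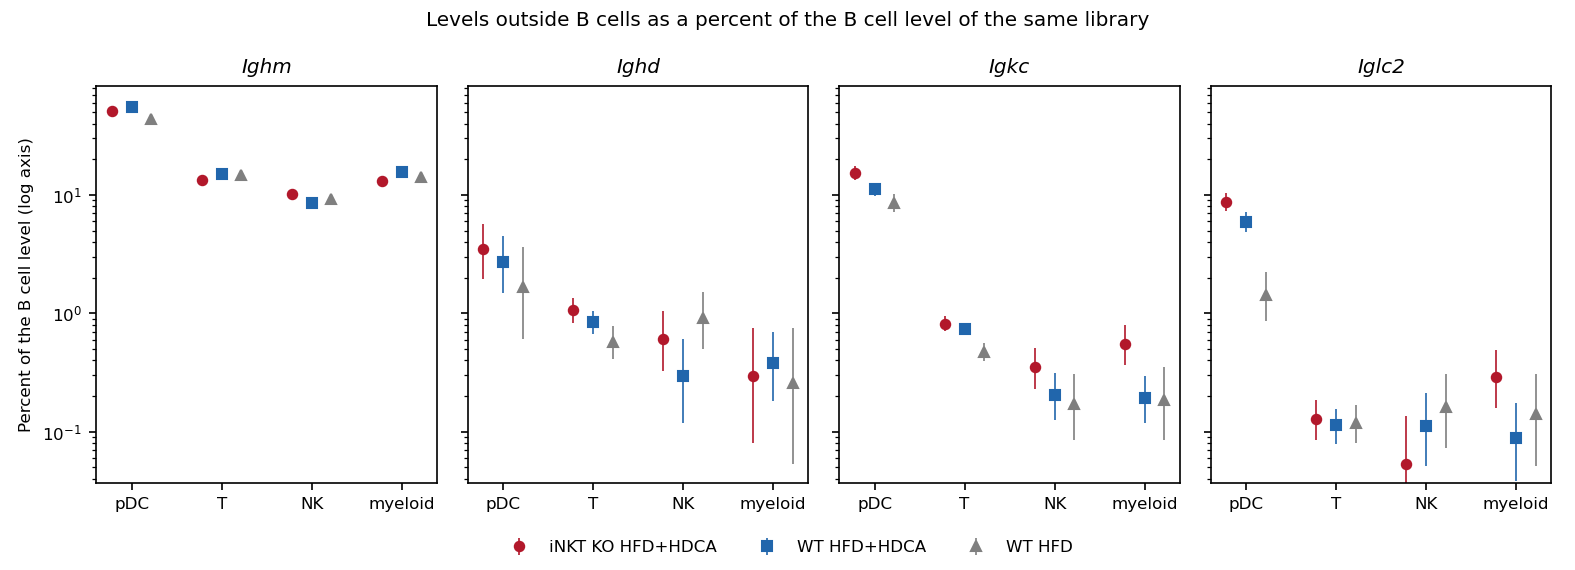
Level of Ighm, Ighd, Igkc and Iglc2 in pDC, T, NK and myeloid cells as percent of the level in B cells of the same library, on a log axis. Ighm lies at 8.61% to 15.8% in T, NK and myeloid cells and at 44.1% to 54.9% in pDC, while the other 3 genes reach at most 1.06% in T, NK and myeloid cells.

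Ranked by Ighm, the classes ran plasma-rule, B, pDC, then myeloid and T cells, then NK cells in each library. T and myeloid intervals overlapped in all 3 libraries, so their order is not given by these counts. Plasmacytoid dendritic cells, the interferon-producing cells marked by Siglech, had 569 CPM (525 to 615) of Ighm in iNKT KO HFD+HDCA, 630 (590 to 672) in WT HFD+HDCA and 509 (466 to 556) in WT HFD. It was seen in 97.9%, 98.4% and 96.3% of them, with 0.0870, 0.0571 and 0.00797 Ighv UMIs per Ighm UMI. Iglc3 was high in them as well, at 897, 959 and 700 CPM, while Iglc2 had 122, 71.9 and 19.3 and Igkc 219, 166 and 132. Igkc there was uneven, with a UMI in 39.2%, 26.6% and 14.8% of cells.

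Within T cells Ighm followed the subset. T cells with Cd4 and no Cd8a had 204 CPM in iNKT KO HFD+HDCA, 254 in WT HFD+HDCA and 225 in WT HFD, against 138, 143 and 137 in those with Cd8a and no Cd4. The Cd4 over Cd8a ratio was 1.48 (1.34 to 1.63), 1.78 (1.65 to 1.92) and 1.65 (1.51 to 1.80). NK cells with Klrg1 had 51.1, 69.1 and 67.4 CPM of Ighm in the same order of libraries, against 158, 126 and 128 in those without. Myeloid cells with Flt3, a receptor of dendritic cells, had 1.53, 1.56 and 1.52 times the Ighm level of those with Ace, found in patrolling monocytes.

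Between libraries, 4 of the 10 genes had the 50 UMIs needed for a ratio in T cells. Igkc had 11.04 CPM in WT HFD+HDCA and 7.29 in WT HFD, a ratio of 1.51 (1.23 to 1.87), and was the 1 gene past 1.5-fold, where 3.37% of all genes passed and 1.79% on the higher side. Cd79a, a B cell marker, had 3.76 CPM in T cells of WT HFD+HDCA and 3.86 in WT HFD, so it did not move with Igkc. The knockout over WT HFD+HDCA ratio in T cells was 0.859 (0.817 to 0.903) for Ighm and 1.05 (0.870 to 1.27) for Igkc. None of the 4 passed the fold there, where 5.57% of all genes did. In NK and myeloid cells Ighm alone had that many. Its ratio for WT HFD+HDCA over WT HFD was 0.917 (0.812 to 1.04) in NK cells, where 3.73% of genes passed 1.5-fold, and 1.11 (0.998 to 1.23) in myeloid cells, where 9.51% did. For the knockout over WT HFD+HDCA it was 1.15 (1.03 to 1.28) in NK cells, with a background of 7.39%, and 0.814 (0.733 to 0.902) in myeloid cells, with 11.3%. Light chain genes in myeloid cells stayed under 50 UMIs. Igkc had 27 UMIs in the knockout and 21 in WT HFD+HDCA, a ratio of 2.75 (1.496 to 5.11), and Iglc2 had 14 and 8 UMIs, a ratio of 3.74 (1.46 to 10.3).

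Jchain and the switched genes were near absent outside the B lineage. Jchain had 15, 21 and 5 UMIs in T cells of iNKT KO HFD+HDCA, WT HFD+HDCA and WT HFD, 2, 6 and 4 in NK cells, and 8, 7 and 0 in myeloid cells, never more than 1 in a cell. Igha had 4, 7 and 3 UMIs in T cells. Ighg2b had at most 2 UMIs and Ighg3 at most 1 in any of these classes, and Ighg1 had 0 in all T cells and 1 in NK cells of the knockout. Of the 90 values of 10 genes in 3 classes and 3 libraries, 46 rested on more than 3 UMIs.

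Genes with the most similar pattern were sought over the 18 sums of 6 classes in 3 libraries, among 13748 genes. These correlations describe sums that share libraries and markers. For Jchain the highest Pearson correlations of log2(CPM + 1) were with Oosp1 (0.990), Tnfrsf17 (0.986), Pycr1 (0.977), Derl3 (0.976) and Txndc11 (0.970). For Ighm they were Gm46961 (0.982), Eaf2 (0.974), ENSMUSG00000079190 (0.972), Mzb1 (0.964) and Gm30211 (0.963). For Ighg2c they were lower, with Dusp4 at 0.877 and Glb1, Gm56852, Tssc4 and Fbxo44 at 0.869 to 0.847.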

How the data were processed

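The deposited RNA files hold counts of UMIs per gene and barcode, made by the authors with Cell Ranger 8.0.1, per the file headers. The labels name a 3′ kit, yet UMIs on immunoglobulin V segments were 3.33, 3.89 and 3.16 times those on constant genes in iNKT KO HFD+HDCA, WT HFD+HDCA and WT HFD. The submitters' processing notes name several genome builds, so no coordinates are given. Barcodes needed 200 genes or more and less than 10% of UMIs from mitochondria. Scrublet, run on each library (scanpy 1.11.5, seed 0), marked 3.94%, 4.83% and 3.75% of barcodes as doublets, which were left out. Deposited TCR contigs served to mark T cells.

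Gates on UMIs were applied in this order. Plasma rule: Jchain at least 10 with Mzb1 or Sdc1. pDC: Siglech at least 2. B: at least 5 of a marker sum with Cd79a, Cd79b and Ms4a1 (another marker in it is not reported here). T: at least 2 of Cd3d, Cd3e and Cd3g, or a contig. NK: Ncr1. Myeloid: at least 5 of Lyz2, Csf1r, Cst3 and Ms4a6c. The plasma rule excludes no other marker, the pDC gate excludes T and NK markers, and the B, T, NK and myeloid gates exclude markers of each other. Per library, 507 to 863 cells stayed unassigned. CPM is the count of a gene over all cells of a class in a library, scaled to the UMIs of that class.

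Levels have exact Poisson, shares Clopper-Pearson and ratios conditional exact 95% intervals (scipy 1.17.1), which cover counting error only. A count of 0 allows 3 counts. The ratio code was tested on simulated data. Genes entered the counts past 1.5-fold with at least 50 UMIs over both libraries, and ratios on fewer UMIs are marked where given. All 10 genes are reported, with up to 4 genes of most UMIs per list and the 5 most similar genes for Jchain, Ighm and Ighg2c. A comparison of knockout NK cells with at least 3 Ighg2c UMIs found no such cell. The genes and lists were chosen with earlier results of these data known. T, NK and myeloid subsets, calls by V segments, the sets of alike plasma barcodes, and the single cells, Igkv5-39 and Cd79a were chosen after seeing values. Alternatives changed doublets, gates, depth, thresholds and single top cells.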

Additional observations from a re-analysis of the deposited data

How the results depend on the processing

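No paired analysis was possible because each group has 1 library, and for the same reason no replicate could be left out. Of 64 alternative values for the main comparisons, 50 kept their direction and stayed within the main value's interval or, for counts of genes, within 1.5 times it. The number of genes past 1.5-fold in B cells depends on counts. For WT HFD+HDCA over WT HFD it was 3, and became 1 (Igha, higher) under a stricter B gate (628, 880 and 505 cells in iNKT KO HFD+HDCA, WT HFD+HDCA and WT HFD), 0 with cells thinned to 2000 UMIs and 0 with at least 200 UMIs. For iNKT KO HFD+HDCA over WT HFD+HDCA it was 5, and became 1 under each of these settings (Igha, lower). Each of these settings left 5 genes measured. The share of cells with Iglc2 above Igkc had a WT HFD+HDCA over WT HFD ratio of 0.861 and of 0.945 when called by V segments. For the knockout over WT HFD+HDCA it was 1.15, against 1.03 with Iglc1, Iglc2 and Iglc3 summed and 0.826, reversed, by V segments. The plasma-rule share of the knockout over WT HFD+HDCA was 1.07, and reversed to 0.976 with 3 or more UMIs of Mzb1 and Sdc1, to 0.910 with alike barcodes counted once and to 0.906 with Ms4a1 under 5 UMIs. Ighg2c in Ncr1-positive cells differed by 0.304 CPM for WT HFD+HDCA minus WT HFD and by 0.989 for the knockout minus WT HFD+HDCA. With every kept Ncr1 cell these became 181 and -180, through 1 barcode. For the changed shares the cause was not tested. No ratio of switched B cells is given under the stricter gate (1 against 0 cells, and 2 against 1) or at 10 UMIs (0 in the knockout, 5 in WT HFD+HDCA). Among 54 alternatives for single levels, 1 moved: Ighm in T cells of the knockout, 148 CPM, was 142 without cells holding B markers. The settings on barcode sets, V segments, Ms4a1, B markers at 0 and T or NK markers were added after seeing the data.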

Other observations

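The NK class of the knockout also differed in genes of tissue-resident cells. All 4 genes of type 1 innate lymphoid cells were more than 1.5-fold higher in its NK class than in WT HFD+HDCA. The NK gate required Ncr1 and excluded no marker of type 1 innate lymphoid cells. The share of such cells in the NK class was not tested. Itga1 (CD49a) had 91.2 CPM in iNKT KO HFD+HDCA and 29.8 in WT HFD+HDCA, a ratio of 3.07 (2.59 to 3.64). Cxcr6, a receptor that holds cells in the liver, had 131 and 51.6 CPM, a ratio of 2.54 (2.23 to 2.90). Of all 9937 genes measured in that class, 7.39% passed 1.5-fold in either direction, and 417 genes did so on the higher side. In WT HFD the NK class had 37.7 CPM of Itga1 and 81.9 of Cxcr6, between the levels of the other libraries. Against WT HFD, 2 of the 4 genes were at least 1.5-fold lower in WT HFD+HDCA, where 240 of 9734 genes were. These were Cxcr6 at 0.630 (0.541 to 0.734) and Tnfsf10 at 0.469 (0.373 to 0.589). The part of these genes in the NK level of Ighm, 1.15 times that of WT HFD+HDCA, was not tested.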
